A study of Macaca fascicularis with 21 samples.

Results

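The late post-implantation epiblast of cultured cynomolgus monkey (Macaca fascicularis) embryos was described from 134 single cells, out of 1453 cells in the series. The cells were those to which the authors' deposited cell table gives the annotation postL-EPI, and all of them came from embryos of days 17 and 16. Day 17 supplied 15, 15 and 3 late epiblast cells from embryo replicates 1, 2 and 3, which held 86, 64 and 80 annotated cells in all. Day 16 supplied 27, 30, 23 and 21 late epiblast cells from embryo replicates 1 to 4, which held 88, 86, 85 and 77 annotated cells. All 7 embryos were grown from blastocysts without a zona pellucida, each alone in a well coated with Matrigel, an extract of basement membrane, in medium with serum, and no strain, genotype or treatment group is named in the labels. Extra-embryonic tissue was trimmed away under the microscope and single cells were picked by hand, so the number of cells of a type describes the picked cells. Day 17 replicates 1 and 2 have their day under a culture stage label, and a developmental stage label holds it for day 17 replicate 3 and for all 4 day 16 embryos. The labels do not state whether culture days and developmental days share 1 origin.

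The epiblast is the pluripotent tissue of the embryo from which the body, the amnion and the germ line arise. After implantation it leaves the naive state of the blastocyst, takes up a primed state in which POU5F1 and SOX2 are still made, and raises the DNA methyltransferase DNMT3B and factors such as OTX2 and ZIC2. Cells of the posterior epiblast turn on TBXT and leave through the primitive streak, while anterior cells later give rise to the neural plate.

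Counts were summed over the late epiblast cells of each embryo, and levels are given as CPM, counts scaled to a common library size by TMM, a normalization for library composition, within the set of sums compared. A late epiblast cell held 5599 to 460130 counts, with a median of 86322.5, and a median of 6481.5 genes with a count. The sums of at least 5 cells held 1277851 and 1701351 counts at day 17 and 2266985 to 3597438 counts at day 16. In the 3-cell sum of day 17 replicate 3, which held 223477 counts and entered no main test, 1 count is worth about 4.45 CPM. Counts of genes used as markers of other types were present in the late epiblast sums. The 20 extraembryonic mesenchyme markers summed to 954 to 2382 CPM in the late epiblast of day 17 and to 731 to 1818 CPM in that of day 16, against 26375 to 42356 CPM in the extraembryonic mesenchyme itself. The 15 trophoblast markers summed to 77.7 to 621 CPM in the late epiblast of day 17 and to 64.7 to 450 CPM in that of day 16, against 4135 to 16216 CPM in the trophoblast cells of day 17. The 16 endoderm markers summed to 311 to 606 CPM in the late epiblast of day 17 and to 263 to 654 CPM in that of day 16, against 1845 to 16536 CPM in the visceral and yolk sac endoderm. Of these lists, 1 to 5 mesenchyme, 1 to 9 trophoblast and 7 to 12 endoderm markers were at 0 in the late epiblast sums of day 17, against 0 to 2, 1 to 6 and 2 to 5 in those of day 16. Barcoded cells were pooled after amplification, per the labels' protocols. Whether these counts come from RNA of other cells, and what part such RNA has in the results below, was not tested. Levels come from the 3' ends of transcripts and are compared between samples within a gene, not between genes.

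The cells carried the markers of their label. Of the 5 epiblast markers, 4 were higher in the late epiblast than in the late gastrulating cells, the late amnion and the extraembryonic mesenchyme of the same embryos by edgeR's quasi-likelihood test with Benjamini-Hochberg adjustment, and OTX2 was not called in any of these contrasts. Against the gastrulating cells the ZIC2 call was lost without day 16 replicate 3 and on thinned cells, and against the mesenchyme it was lost over day 16 alone. Against the amnion the SOX2 call was lost without day 16 replicate 2, that of DNMT3B without day 16 replicate 2 or 3, and those of DNMT3B and SFRP1 without the embryo as a block. SOX2, the pluripotency factor that pairs with POU5F1, had 137, 129, 235 and 677 CPM in the late epiblast of day 16 replicates 1 to 4, against 18.1, 4.04, 19.8 and 22.5 CPM in the late gastrulating cells of the same embryos. SFRP1, a secreted WNT antagonist, had 529, 433, 565 and 1039 CPM in the late epiblast of these embryos, against 43.6, 37.7, 114 and 110 CPM in their gastrulating cells. The groups did not overlap for either gene, and every embryo was higher in the late epiblast. ZIC2, a zinc finger factor, averaged 132.7 ± 36.5 CPM in the late epiblast and 37.1 ± 13.3 CPM in the gastrulating cells (SD, n = 4 embryos each). Among the endoderm cells of day 16, however, ZIC2 averaged 295 CPM against 149 CPM in the late epiblast, and OTX2 averaged 330 CPM against 52.1 CPM, on a scale common to all types. Both factors were thus higher in the endoderm than in the late epiblast on that day.

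**Figure D1:**
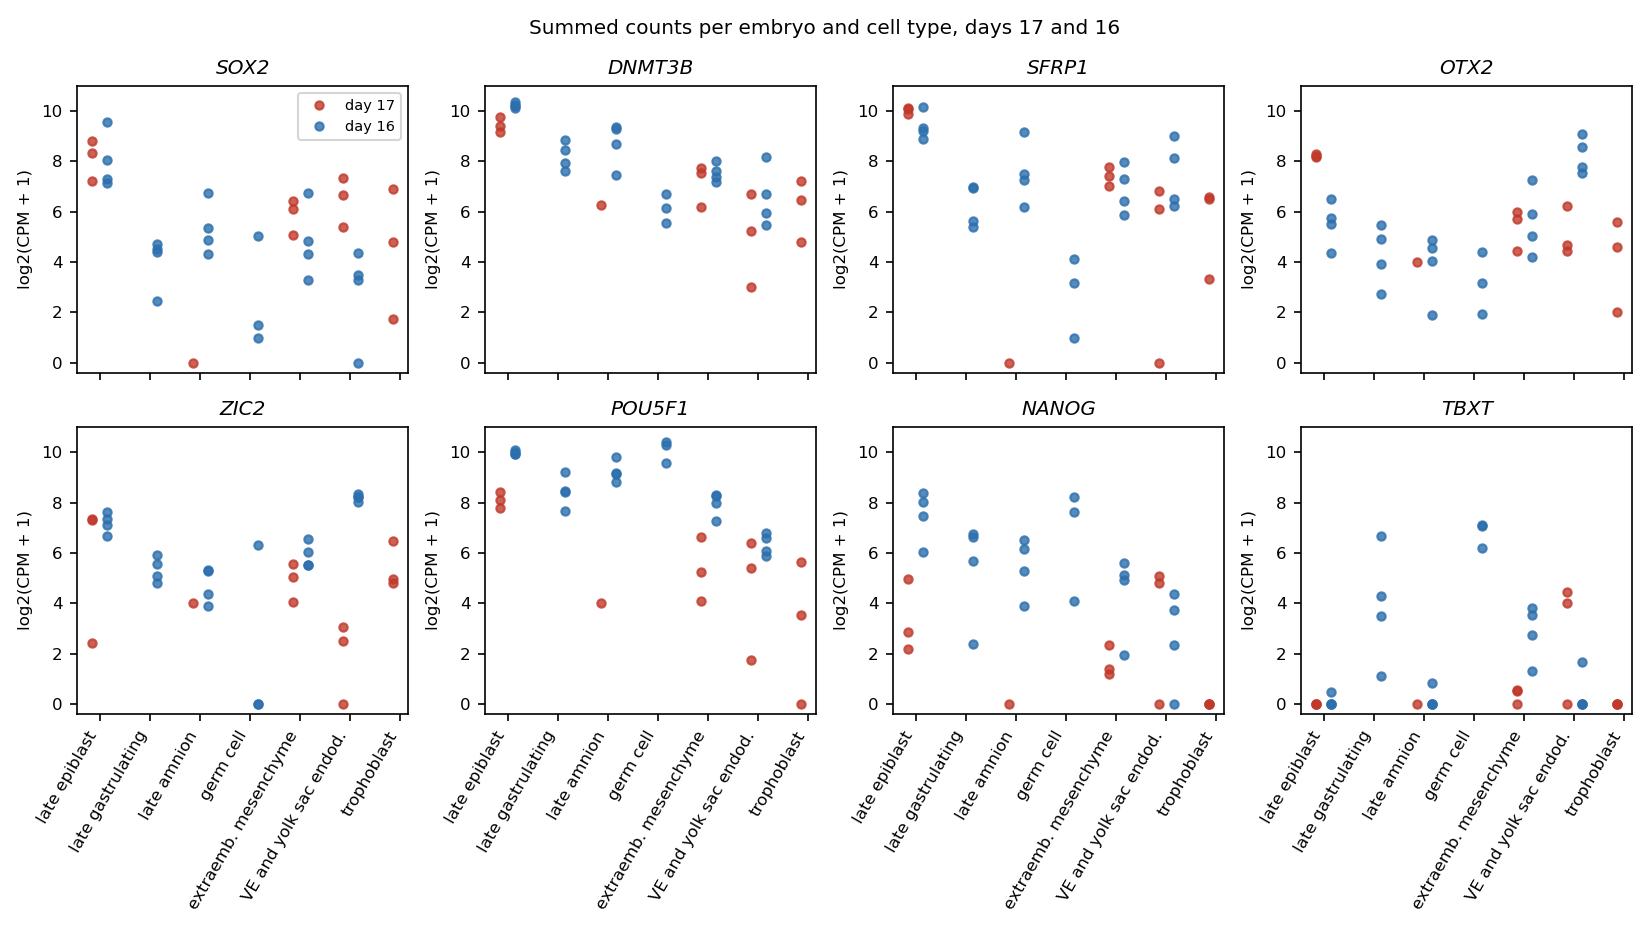
Summed counts per embryo and annotated type for the 5 epiblast markers and for POU5F1, NANOG and TBXT, as log2(CPM + 1) on a scale common to all types (vertical axis); each point is 1 embryo, red for day 17 and blue for day 16, and sums of fewer than 5 cells are included. SOX2, DNMT3B and SFRP1 averaged highest in the late epiblast columns, POU5F1 and NANOG of the late epiblast are lower at day 17 than at day 16, and TBXT of the late epiblast lies at or near 0.

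The annotation was made by the authors from these same expression values, so the contrasts between types describe the labelled cells and are not independent evidence for the labels. Against the late gastrulating cells, 123 of 13701 genes (0.898%) were higher and 288 (2.1%) lower in the late epiblast, with 2066 genes at an unadjusted p under 0.05 and a median log2 fold change over all genes of 0.10. This contrast rests on the 4 day 16 embryos, and leaving out day 16 replicate 2 or 3 left 178 or 187 calls of 411. Streak genes were low in the late epiblast: 4 of 11 tested streak genes were lower (TBXT, LHX1, HAND1 and PDGFRA), none was higher, and the list's median was -2.85. TBXT, the T-box factor of the streak, had 1 count in all the late epiblast sums of day 16 and 119 counts in the gastrulating sums, a ratio of 281 (95% counting interval 49.4 to 11180). Its call was lost without day 16 replicate 2, 3 or 4. APLNR, the apelin receptor of early mesoderm, had 0.591, 2.90, 3.50 and 6.57 CPM in the late epiblast of replicates 1 to 4, against 581, 617, 277 and 522 CPM in the gastrulating cells, and its log2 fold change was -7.78 ± 1.12 (SE). BMPER, a secreted modulator of BMP signals, averaged 4.35 ± 6.53 CPM in the late epiblast and 355 ± 100.3 CPM in the gastrulating cells (SD, n = 4 each). FGF17, HOXB2, HOXB3, HOXB6 and the red cell genes ALAS2 and KEL were the other large decreases, with averages of 0.263 to 1.14 CPM in the late epiblast and 20.3 to 116 CPM in the gastrulating cells. ALAS2 varied widely among the gastrulating sums, with 2.13, 387, 53.2 and 23.8 CPM in replicates 1 to 4.

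Pluripotency genes were among those higher in the late epiblast than in the gastrulating cells. Of 28 tested core and primed pluripotency genes, 10 were higher and 1 (SOX4) lower, and the list's median log2 fold change was 1.32. NANOG was not called in this contrast. Of 6 tested neural and anterior genes, HESX1 alone was called, with a list median of 0.15. HESX1, an anterior homeobox repressor, had 189, 174, 153 and 31.8 CPM in the late epiblast of day 16 replicates 1 to 4, against 2.13, 4.04, 9.71 and 0 CPM in the gastrulating cells. The groups did not overlap, the log2 fold change was 5.13 ± 0.67 (SE), and the edgeR adjusted p was 6e-05. POU5F1 averaged 911 ± 68.8 CPM in the late epiblast and 336 ± 145 CPM in the gastrulating cells (SD, n = 4 each), a log2 fold change of 1.46 ± 0.29 (SE). Its call was lost without day 16 replicate 2 or 3, with sums of at least 3 cells and without the embryo as a block. TSPAN7, a tetraspanin, had 310 counts in the late epiblast and 1 in the gastrulating cells, a ratio of 131 (95% counting interval 23.4 to 5205). SLCO5A1, C1H1orf158, MYRIP, GRAMD1B and ZNF425 completed the largest increases together with SCN2A, a sodium channel subunit. SCN2A had 0.886, 2.90, 26.3 and 507 CPM in the late epiblast of the 4 embryos, and a single cell held 89.3% of its day 16 late epiblast counts. TSPAN7 and these 6 further increases lost their calls without day 16 replicate 3, and HESX1 kept its call whichever 1 embryo was left out. Of 19 chromatin genes, 5 were higher (DNMT3A, DNMT3B, TET3, HELLS and JARID2) and none lower.

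Against the late amnion, 144 of 13701 genes (1.05%) were higher and 405 (2.96%) lower in the late epiblast, with 2452 at an unadjusted p under 0.05 and a median over all genes of 0.11. Without day 16 replicate 2 the calls numbered 153 and without replicate 3 they numbered 242, out of 549. Of 14 tested amnion markers, 10 were lower in the late epiblast and none higher, with a median of -5.38. ISL1, a LIM homeobox factor of the amnion, had 0.591, 0.968, 6.65 and 2.53 CPM in the late epiblast of day 16 replicates 1 to 4, against 123, 155, 129 and 73.4 CPM in the amnion. GABRP, a GABA receptor subunit, had 4.14, 2.58, 2.10 and 0 CPM in the late epiblast, against 80.6, 408, 129 and 469 CPM in the amnion. No embryo's late epiblast reached the lowest amnion value for either gene. DLX5, a homeobox factor, had no count in the late epiblast sums of day 16, which allows up to 0.255 CPM, against 39.3, 31.2, 54.9 and 23.7 CPM in the amnion of replicates 1 to 4, so it was at least 162-fold lower. DLK2, a membrane ligand related to DLK1, averaged 0.390 ± 0.476 CPM in the late epiblast and 189.7 ± 95.4 CPM in the amnion (SD, n = 4 each). Epithelial genes were lower as well, 9 of 24 tested and none higher, among them the keratins KRT8, KRT18 and KRT19. POU5F1 was not called against the amnion: it averaged 911 ± 68.8 CPM in the late epiblast and 559 ± 168 CPM in the amnion (SD, n = 4 each), an edgeR adjusted p of 0.21.

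CDH18, a cadherin, was among the largest increases against both the amnion and the mesenchyme. It had 1462, 238, 417 and 1574 CPM in the late epiblast of day 16 replicates 1 to 4, against 28.6, 5.21, 9.74 and 78.2 CPM in the amnion, a log2 fold change of 5.08 ± 0.91 (SE; edgeR adjusted p = 0.0082), and its call was lost without day 16 replicate 2. Of the 101 day 16 late epiblast cells, 80 held a CDH18 count, and 43.8% of its counts came from 1 cell. For TPH2, TGFB3 and C1QTNF2, also among the largest increases, 1 cell held 87.9%, 63.4% and 85.5% of the day 16 counts, and their calls were lost without day 16 replicate 1, 2 or 3.

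Against the extraembryonic mesenchyme, in 6 embryos, 600 of 13701 genes (4.38%) were higher and 1087 (7.93%) lower in the late epiblast, with 3430 at an unadjusted p under 0.05 and a median over all genes of 0.04. Collagens, proteoglycans and mesodermal factors set the types apart: 18 of 19 mesenchyme markers were lower in the late epiblast and none higher, with a median of -4.78. COL1A1, the collagen I chain, had 396 and 391 CPM in the late epiblast of day 17 replicates 1 and 2 and 61.6 to 225 CPM in that of day 16, against 5597 and 5109 CPM in the mesenchyme of these day 17 embryos and 3081 to 5060 CPM in that of day 16. HOXA10 averaged 0.638 ± 0.885 CPM in the late epiblast and 71.1 ± 34.2 CPM in the mesenchyme (SD, n = 6 each). DIO3, MRVI1, SCARF2, FOXF1, MYL7, SST and TCF21 were the other largest decreases, and each was lower in all 6 embryos. ADARB2, DDX25, FAM19A1, PTN, BCL11B, TRPM3 and DPYSL5 were the largest increases beside CDH18 and were higher in all 6 embryos. PTN, a heparin-binding growth factor, had 268 and 83.7 CPM in the late epiblast of day 17 and 6.78 to 31.2 CPM in that of day 16. PTN, BCL11B and TRPM3 were not called over the day 16 embryos alone, and the BCL11B call was also lost in 5 of 7 fits that left out 1 embryo. Of 23 mitosis genes, 7 were higher and none lower, with all 23 fold changes above 0 and a median of 0.93. Of 23 replication genes, 4 were higher (PCNA, MCM5, FEN1 and GMNN) and none lower.

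Day 17 was compared with day 16 within the late epiblast, over the sums of 2 and 4 embryos. In these sums the late epiblast of day 17 had less POU5F1 and NANOG and more OTX2, held counts of the neural factors PAX6 and SIX3 that the late epiblast of day 16 lacked, and had lower levels of hypoxia and glycolysis genes. Respiratory chain genes were lower as well in these 2 embryos with culture stage labels, and not in day 17 replicate 3. Of 13546 genes, 114 (0.842%) were higher and 323 (2.38%) lower at day 17, with 2506 at an unadjusted p under 0.05 and a median log2 fold change over all genes of -0.08. Both day 17 sums come from embryos with culture stage labels and all day 16 sums from embryos with developmental stage labels, so day and label type cannot be told apart in this test. For that reason the value of day 17 replicate 3, which has a developmental stage label but 3 late epiblast cells, is given beside the levels. A fit with developmental stage labels alone has this 1 sum as its day 17 arm, which is assumed to vary like the day 16 embryos, so its p-values hold no spread among day 17 embryos. In bulk sums of this kind, fewer cells with a transcript and less of it per cell cannot be told apart. Of the 24 largest changes, VGLL1, IRX2 and ITM2A kept their calls without either day 17 embryo. PCDH8 and SIX3 kept theirs without day 17 replicate 1, but without replicate 2 too few of their counts were left for a test. The other 19 lost their calls without at least 1 of these embryos. All calls fell to 27 without day 17 replicate 2 and to 33 without day 17 replicate 1. They numbered 260 without day 16 replicate 3 and 928 without day 16 replicate 4.

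POU5F1, the central factor of pluripotency, had 254 and 208 CPM at day 17, against 934, 1002, 896 and 999 CPM at day 16. The days did not overlap, and day 17 replicate 3, at 356 CPM, also lay below every day 16 embryo. The log2 fold change was -2.03 ± 0.29 (SE; edgeR adjusted p = 0.0030), and it was not called with developmental stage labels alone, where it was -1.53 (adjusted p = 0.088), nor without either day 17 embryo. NANOG, a homeobox factor of the pluripotency network, had 3.25 and 5.88 CPM at day 17, against 319, 252, 165 and 58.1 CPM at day 16. Its replicate 3 value at day 17 was 31.1 CPM, below the lowest day 16 embryo, and the log2 fold change was -5.38 ± 0.76 (SE; edgeR adjusted p = 0.0033). As for POU5F1, the NANOG call was lost without either day 17 embryo and with developmental stage labels alone, where the log2 fold change was -2.77 (adjusted p = 0.21). OTX2, a homeobox factor of the primed epiblast and of the anterior neural plate, had 289 and 272 CPM at day 17, against 86.9, 50.5, 42.0 and 17.8 CPM at day 16, with 302 CPM in day 17 replicate 3. All 3 day 17 embryos exceeded every day 16 embryo, and the log2 fold change was 2.54 ± 0.48 (SE; edgeR adjusted p = 0.013). With developmental stage labels alone the OTX2 fold change was 2.51 (adjusted p = 0.10), and its call was also lost without either day 17 embryo.

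The other 4 epiblast markers were not called between the days. SOX2 had 418 and 305 CPM at day 17, against 148, 136, 249 and 683 CPM at day 16, with 151 CPM in day 17 replicate 3, so the days overlapped (log2 fold change 0.26 ± 0.65, SE). DNMT3B had 628 and 806 CPM at day 17, against 1112, 1157, 1237 and 1003 CPM at day 16, with 591 CPM in day 17 replicate 3. The values did not overlap, and the edgeR adjusted p was 0.205. SFRP1 had 884 and 1032 CPM at day 17 and 1103 CPM in replicate 3, against 457 to 1049 CPM at day 16. ZIC2 had 151 and 146 CPM at day 17, against 95.9 to 179 CPM at day 16, but 4.45 CPM in day 17 replicate 3. With developmental stage labels alone ZIC2 had a log2 fold change of -5.05 (edgeR adjusted p = 0.038), the opposite sign to the 0.12 of the 2 culture stage embryos, a value that rests on those 3 cells.

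Of 28 tested core and primed pluripotency genes, 2 were higher at day 17 (OTX2 and the WNT receptor FZD7) and 7 lower (POU5F1, NANOG, DPPA4, GDF3, SOX4, L1TD1 and TERF1). The list's median log2 fold change was 0.08, against -0.08 over all genes, and 15 of the 28 fold changes were above 0. DPPA4, a chromatin factor of pluripotent cells, had 28.6 and 61.7 CPM at day 17 and 35.6 CPM in replicate 3, against 118 to 247 CPM at day 16. Of 9 tested naive and maternal complex genes, 1 was lower and none higher. That gene was DPPA5, with 5.19 and 2.45 CPM at day 17 and 4.45 CPM in replicate 3, against 175, 118, 139 and 61.2 CPM at day 16 (log2 fold change -4.99 ± 0.68, SE).

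**Figure D2:**
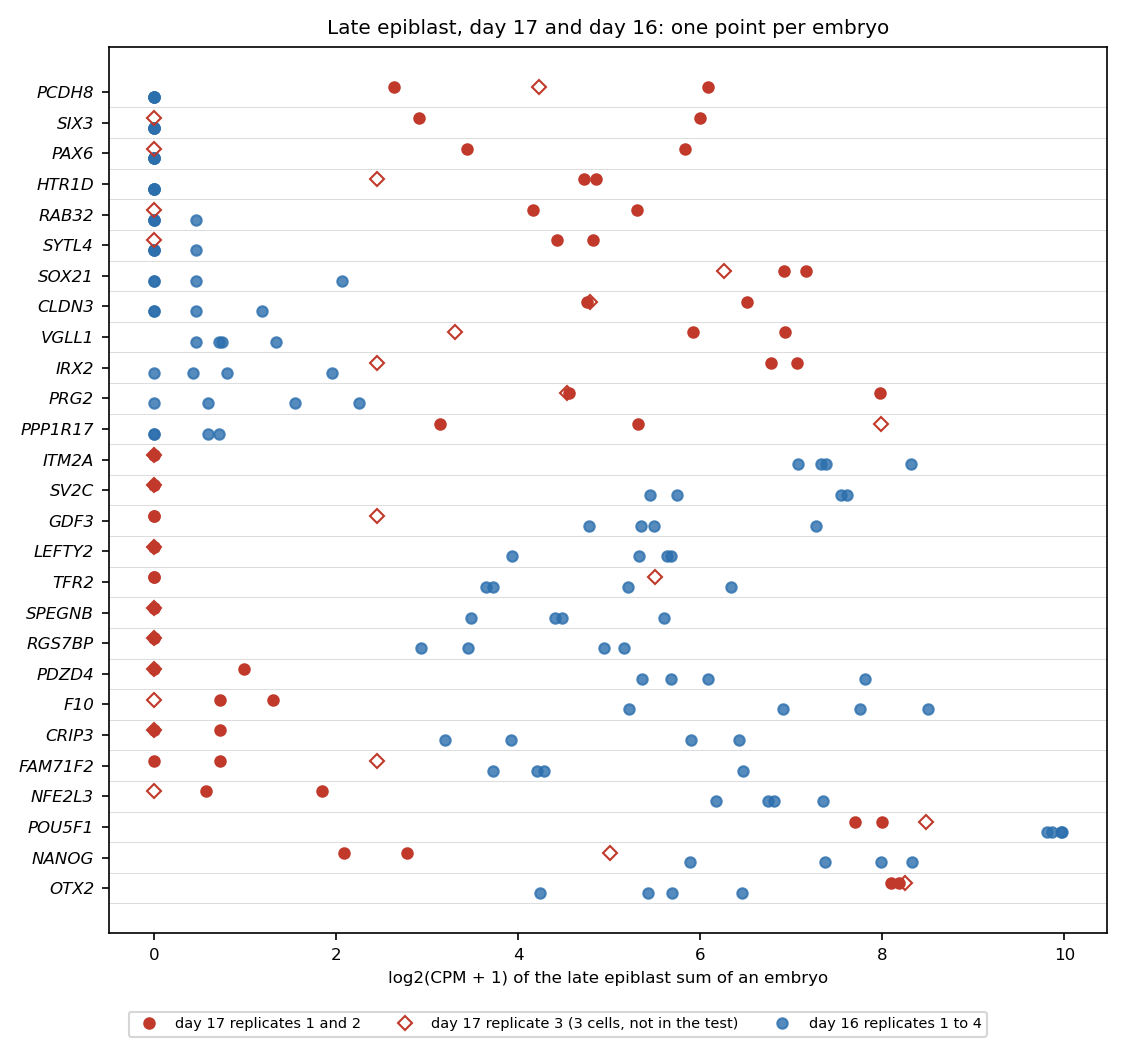
Levels of the 12 largest increases and the 12 largest decreases between day 17 and day 16, followed by POU5F1, NANOG and OTX2, as log2(CPM + 1) of the late epiblast sum (horizontal axis); each point is 1 embryo, filled red for day 17 replicates 1 and 2, open red for day 17 replicate 3 and blue for day 16. The filled red points of PCDH8 to PPP1R17 lie right of every blue point, and those of ITM2A to NFE2L3 lie left of every blue point, which the choice of these genes required.

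Of the neural and anterior list, 7 of 17 genes in the table passed the filter on low counts, and 3 of these were higher at day 17 (PAX6, SIX3 and CDH2) and none lower. The late epiblast mean log2(CPM + 1) over the 17 genes was 3.18, 2.99 and 1.43 in day 17 replicates 1, 2 and 3. At day 16 this mean was 1.27 to 1.61. In the extraembryonic mesenchyme it was 2.27, 2.38 and 1.80 in these day 17 embryos, against 1.18 to 1.84 at day 16. In the late epiblast, 13 of the 17 genes were at 0 in day 17 replicate 3, against 5 in each of replicates 1 and 2 and 11 or 12 at day 16. The summed CPM of replicate 3 was 518, above the 261 to 389 of day 16 and below the 873 and 644 of replicates 1 and 2. PAX6, a paired box factor of the eye and forebrain, had 55.8 and 9.80 CPM at day 17 and no count in the 4 day 16 sums, which hold 11754123 counts and so allow up to 0.255 CPM. Over the pooled counts of these sums it was at least 139-fold higher at day 17 (edgeR adjusted p = 0.010), and its call was lost without either day 17 embryo. Few cells carried it: 5 of 33 late epiblast cells of day 17 held a PAX6 count, and 1 of them held 72.6% of the counts. SIX3, a homeobox factor of the anterior forebrain, had 6.49 and 62.7 CPM at day 17 and no count at day 16. It was at least 181.5-fold higher over the pooled counts, from 6 cells of which 1 held 67.4% of the counts. Both genes were at 0 in the 3 cells of day 17 replicate 3. Counts of both PAX6 and SIX3 were found in 2 cells. Of the 5 cells with PAX6, 4 held OTX2 counts and 4 held POU5F1 counts, where 29 and 27 of all 33 cells held them. CDH2, the N-cadherin of neural and mesodermal tissue, had 255 and 221 CPM at day 17, against 28.4, 12.3, 31.9 and 37.7 CPM at day 16 (log2 fold change 3.13 ± 0.46, SE; edgeR adjusted p = 0.0033). Its level in day 17 replicate 3 was 40.0 CPM, near the day 16 embryos. SOX21, a SoxB factor of neural progenitors, had 120 and 142 CPM at day 17 and 75.6 CPM in replicate 3, against 3.20, 0, 0.371 and 0 CPM at day 16, and was found in 29 of 33 cells.

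The other large increases came from varied families. PCDH8, a protocadherin of paraxial mesoderm and brain, had 5.19 and 67.1 CPM at day 17, with 17.8 CPM in replicate 3, and no count at day 16. Over the pooled counts of replicates 1 and 2 it was at least 191-fold higher, although DESeq2 did not call it. Of 33 day 17 cells, 6 held a PCDH8 count, and 1 of them held 52.3% of the counts. HTR1D, a serotonin receptor, was at least 126-fold higher, with 25.3 and 27.9 CPM at day 17 and 4.45 CPM in replicate 3. RAB32 and SYTL4, which act in vesicle traffic, each had 1 count in all day 16 sums, and the day 17 to day 16 ratios of counts were 414 (95% counting interval 72.7 to 16520) and 331 (57.9 to 13240). Both were at 0 in day 17 replicate 3. IRX2, an Iroquois homeobox factor, had 133 and 109 CPM at day 17 and 4.45 CPM in replicate 3, against 0 to 2.88 CPM at day 16. PPP1R17, a phosphatase inhibitor, had 38.9 and 7.84 CPM at day 17 and 253 CPM in replicate 3, against at most 0.639 CPM at day 16. VGLL1, a TEAD cofactor of trophoblast, had 121 and 59.8 CPM at day 17, against 0.371 to 1.53 CPM at day 16, with 8.89 CPM in replicate 3. PRG2, an eosinophil and placental protein, had 251 and 22.5 CPM at day 17, against 0 to 3.75 CPM at day 16, with 22.2 CPM in replicate 3. Its call was lost without day 16 replicate 1 or 4 or day 17 replicate 1, and with developmental stage labels alone. The trophoblast cells of day 17 averaged 352 CPM of VGLL1 and 6828 CPM of PRG2 on the common scale, and the extraembryonic mesenchyme of day 17 averaged 34.4 and 149.5 CPM of these genes. CLDN3, a tight junction claudin, had 26.0 and 90.6 CPM at day 17 and 26.7 CPM in replicate 3, against 0 to 1.28 CPM at day 16. On the common scale the trophoblast cells of day 17 averaged 85.2 CPM of CLDN3 and 96.8 CPM of IRX2. The part of trophoblast RNA in the increases of VGLL1, PRG2, CLDN3 and IRX2 was not tested.

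Among the decreases, ITM2A, a type II membrane protein, had no count in 33 day 17 cells, against 318, 159, 166 and 134 CPM at day 16, where 82 of 101 cells held a count. It was at least 183.5-fold lower and was called under all 15 alternatives run. SV2C, a synaptic vesicle protein, was at 0 in all 3 day 17 sums, against 194, 186, 42.7 and 52.5 CPM at day 16, at least 116-fold lower. GDF3 and LEFTY2, a ligand and an inhibitor of NODAL signalling, were at 0 in both day 17 sums of the test, against 153, 39.9, 26.4 and 43.8 CPM of GDF3 and 50.2, 39.2, 48.7 and 14.3 CPM of LEFTY2 at day 16. They were at least 63.6-fold and 36.4-fold lower. Replicate 3 of day 17 had 4.45 CPM of GDF3, from 1 count, and no LEFTY2. The visceral and yolk sac endoderm moved alongside: it averaged 0 CPM of GDF3 and 5.29 CPM of LEFTY2 at day 17, against 967 and 270 CPM at day 16, on the common scale. Its day 17 sums hold only 3, 3 and 7 cells in replicates 1, 2 and 3, and that of replicate 1 holds 22334 counts. NFE2L3, a basic leucine zipper factor, had 2.60 and 0.490 CPM at day 17 and none in replicate 3, against 112, 71.3, 162 and 107 CPM at day 16. TFR2, a transferrin receptor, was at 0 in both sums of the test but at 44.5 CPM in day 17 replicate 3, within the 11.5 to 79.9 CPM of day 16, so its direction was not that of the test with developmental stage labels alone (log2 fold change 0.24). SPEGNB, RGS7BP, PDZD4, F10, CRIP3 and FAM71F2 were the remaining large decreases, with 0 to 1.47 CPM in day 17 replicates 1 and 2 and 6.63 to 362 CPM at day 16. In day 17 replicate 3 these were at 0 except FAM71F2, at 4.45 CPM. A single cell held 65.5% of the day 16 FAM71F2 counts.

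Signalling genes moved in a few places. Of 27 tested WNT pathway genes, 4 were higher at day 17 (the receptors FZD5 and FZD7, the inhibitor DKK1 and the R-spondin receptor LGR4) and none lower, with 22 of 27 fold changes above 0 and a median of 1.25. Over 34 WNT genes the mean log2(CPM + 1) was 4.40 and 4.22 in day 17 replicates 1 and 2, against 3.25 to 3.41 at day 16. In replicate 3 this mean was 3.16, with 14 genes at 0, but the summed CPM of 3135 exceeded the 1688 to 2332 of day 16. FZD7 had 625 and 638 CPM at day 17 and 756 CPM in replicate 3, against 221, 171, 262 and 83.6 CPM at day 16. LGR4 had 187 and 269 CPM at day 17 and 231 CPM in replicate 3, against 32.3 to 92.3 CPM at day 16. For both genes all 3 day 17 embryos exceeded every day 16 embryo. DKK1 had 42.8 and 21.1 CPM at day 17, against 0, 1.71, 0 and 0 CPM at day 16, and no count in replicate 3. It was found in 6 of 33 day 17 cells, and 1 of them held 56.0% of the counts. Of 29 NODAL and BMP pathway genes, ID2, FST and INHBA were higher and LEFTY2 and GDF3 lower. INHBA was found in 8 of 33 day 17 cells, and 1 of them held 56.9% of the counts. FST, the follistatin that binds activin, had 371 and 290 CPM at day 17, against 101 to 139 CPM at day 16 and 107 CPM in replicate 3. None of 6 tested streak genes was called, with 1 fold change above 0; TBXT had no count in the late epiblast of day 17, which allows up to 1.01 CPM over the sums of replicates 1 and 2.

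Metabolic genes were lower at day 17. Of 22 tested hypoxia targets, 5 were lower (ADM, P4HA1, ANKRD37, PFKFB4 and FAM162A) and NDRG1 higher, with 3 fold changes above 0 and a median of -1.40. NDRG1 had a log2 fold change of 3.09, but -0.56 with developmental stage labels alone. ADM, the vasoactive peptide adrenomedullin, had 5.19 and 0.490 CPM at day 17 and none in replicate 3, against 194, 214, 166 and 82.6 CPM at day 16 (log2 fold change -5.87 ± 0.82, SE). Of 19 tested glycolysis genes, 5 were lower (ALDOC, PGK1, PGAM1, LDHA and PDK1) and none higher, with a median of -1.24. PGK1, phosphoglycerate kinase, had 652 and 441 CPM at day 17 and 578 CPM in replicate 3, against 1761, 1513, 1330 and 1130 CPM at day 16. ALDOC, an aldolase, had 11.0 and 1.96 CPM in day 17 replicates 1 and 2, against 78.0 to 182 CPM at day 16, and LDHA, lactate dehydrogenase, had 0 and 1.96 CPM, against 15.8 to 100.3 CPM. Replicate 3 of day 17 had 142 CPM of ALDOC and 35.6 CPM of LDHA, both within the day 16 range, and their log2 fold changes with developmental stage labels alone were -0.12 and -0.88. Of 18 tested cholesterol synthesis genes, HMGCS1 and CYP51A1 were lower, no fold change was above 0, and the median was -1.94. Of 24 tested nuclear genes of oxidative phosphorylation, 9 were lower and none higher, with 1 fold change above 0 and a median of -1.16. COX7C, a cytochrome oxidase subunit, had 409 and 679 CPM at day 17, against 2986, 2301, 2595 and 3436 CPM at day 16 (log2 fold change -2.36 ± 0.30, SE; edgeR adjusted p = 0.0015). In day 17 replicate 3 COX7C stood at 3459 CPM, above every day 16 embryo, and none of the 9 genes was called with developmental stage labels alone.

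Day 17 replicate 3, the embryo with a developmental stage label, differed between these lists. Over the 25 nuclear oxidative phosphorylation genes in the table, the mean log2(CPM + 1) of the late epiblast was 7.12 and 7.21 in day 17 replicates 1 and 2 and 8.34 in replicate 3, against 8.24 to 8.65 at day 16. The extraembryonic mesenchyme of the same embryos, where replicate 3 is well sampled, had 7.29 and 7.37 for nuclear oxidative phosphorylation in day 17 replicates 1 and 2 and 8.48 in replicate 3, against 7.91 to 8.41 at day 16. The hypoxia targets differed from this: their mean in the late epiblast was 4.85, 4.51 and 4.26 in day 17 replicates 1, 2 and 3, against 5.53 to 6.18 at day 16, and in the mesenchyme it was 5.18, 5.19 and 5.05 against 6.16 to 6.66. The glycolysis mean was 5.96, 5.83 and 5.38 in the late epiblast of the 3 day 17 embryos, against 7.09 to 7.62 at day 16. Cholesterol synthesis stood at 4.27, 3.63 and 2.66 in the late epiblast of the 3 day 17 embryos, against 5.16 to 5.78 at day 16. In the 3-cell sum of replicate 3, 4 hypoxia, 4 glycolysis and 7 cholesterol genes were at 0, which lowers these means. The summed CPM, to which a gene at 0 adds nothing, were 1300 (hypoxia), 7466 (glycolysis) and 341 (cholesterol) in replicate 3, against 3191 to 5740, 11615 to 17759 and 1355 to 2857 at day 16. For these 3 lists the value of replicate 3 thus lay below day 16 on both measures, in 1 sum of 3 cells, although single genes such as ALDOC and LDHA did not. The oxidative phosphorylation level was lower only in the 2 embryos with culture stage labels.

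**Figure D3:**
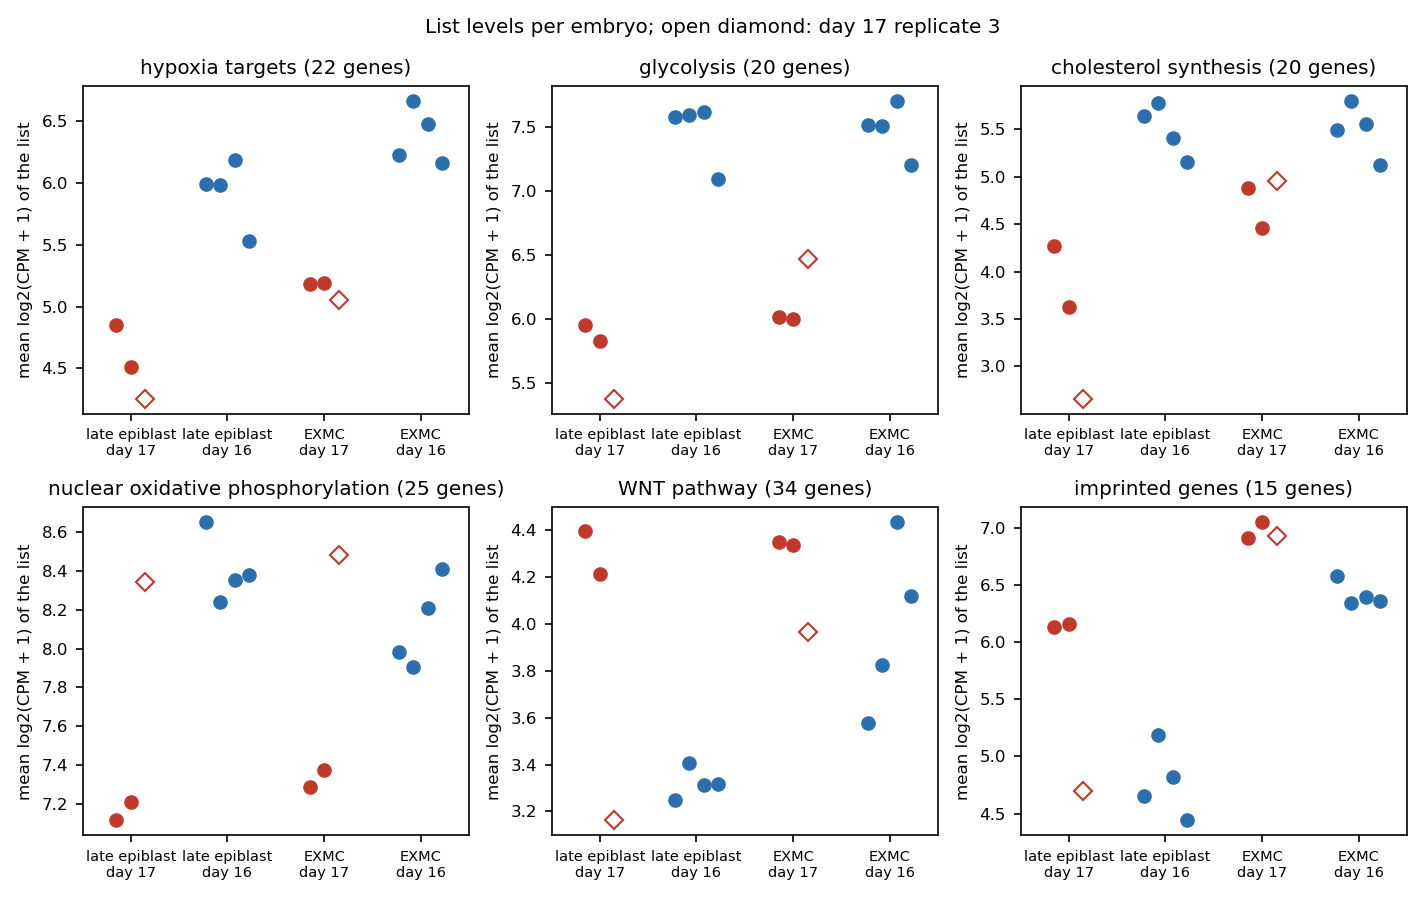
Mean log2(CPM + 1) over the genes of 6 lists (vertical axis) in the late epiblast and the extraembryonic mesenchyme (EXMC) of each embryo; red is day 17, blue is day 16, and the open diamond is day 17 replicate 3, whose late epiblast sum holds 3 cells. For nuclear oxidative phosphorylation the diamonds, at 8.34 and 8.48, lie among or above the day 16 embryos, and for hypoxia targets, at 4.26 and 5.05, they lie with the other day 17 embryos.

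Among the remaining lists, p53 targets had 3 of 19 tested genes higher (SESN2, PHLDA3 and RRM2B) and imprinted genes 2 of 14 (CDKN1C and ZIM2), with none lower in either. The p53 mean log2(CPM + 1) was 4.49 and 5.39 in day 17 replicates 1 and 2, against 3.27 to 3.66 at day 16. In replicate 3 it was 3.04, with 6 genes at 0, and the summed CPM of 462 also lay below the 495 to 786 of day 16. There SESN2 had 53.4 CPM, above the 4.79 to 24.9 CPM of day 16, RRM2B 4.45 CPM and PHLDA3 none. In the mesenchyme the p53 mean was 4.93, 5.08 and 4.93 in day 17 replicates 1, 2 and 3, against 3.50 to 4.31 at day 16. The mesenchyme means of the imprinted list were 6.91, 7.05 and 6.93, against 6.34 to 6.58. Those of the early response and heat shock list were 7.37, 7.15 and 7.36, against 5.66 to 6.29. ZIM2 had 226 and 70.0 CPM at day 17 and 249 CPM in replicate 3, against 9.27 to 18.2 CPM at day 16, and its log2 fold change with developmental stage labels alone, from 1 day 17 sum, was 4.08. CDKN1C, a cyclin-dependent kinase inhibitor, had 229 and 260 CPM in day 17 replicates 1 and 2, against 12.5 to 51.5 CPM at day 16, but 31.1 CPM in replicate 3, within the day 16 range. EPAS1, the hypoxia-inducible factor also listed with the amnion, had 48.7 and 29.4 CPM at day 17 and 53.4 CPM in replicate 3, against 0.510 to 2.73 CPM at day 16. FOS and EGR1, early response genes, were higher and HSPE1, a mitochondrial chaperone, lower among 18 tested early response and heat shock genes. FOS had 132 and 77.9 CPM in day 17 replicates 1 and 2, against 1.53 to 18.2 CPM at day 16, and HSPE1 had 435 and 444 CPM, against 1440 to 2212 CPM. Replicate 3 of day 17 lay within the day 16 range for both, with 13.3 CPM of FOS and 1903 CPM of HSPE1. SPARC was the only 1 of 17 tested mesenchyme markers that was called, with 599 and 303 CPM at day 17 and 165 CPM in replicate 3, against 73.9 to 129 CPM at day 16. AFP was the only 1 of 7 tested endoderm markers called, and it was lower at day 17. Of 23 mitosis genes none was called, and of 23 replication genes CCNE1 was higher.

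Single cells were set on 1 depth by thinning each to 10000 counts, which left out 3 of 33 cells of day 17 and 4 of 101 cells of day 16 that were shallower. The shares pool cells of several embryos and their exact binomial intervals cover counting error only. POU5F1 was found in 21 of 30 thinned cells of day 17 (70.0%, interval 50.6 to 85.3%) and in 97 of 97 of day 16, or in 27 of 33 and 100 of 101 cells without thinning. The extraembryonic mesenchyme, which served as the comparison type, had POU5F1 in 22 of 144 thinned cells of day 17 (15.3%) and in 37 of 77 of day 16 (48.1%). NANOG was found in 4 of 30 thinned cells of day 17 (13.3%) and 68 of 97 of day 16 (70.1%), or in 9 of 33 and 92 of 101 cells without thinning, against 1.39% and 13.0% of the thinned mesenchyme cells. OTX2 went the other way, with 24 of 30 thinned cells of day 17 (80.0%, interval 61.4 to 92.3%) and 22 of 97 of day 16 (22.7%, interval 14.8 to 32.3%), against 18.1% and 14.3% of the thinned mesenchyme cells, and without thinning 29 of 33 and 56 of 101 late epiblast cells held it. CDH2 was found in 21 of 30 thinned late epiblast cells of day 17 (70.0%) and 12 of 97 of day 16 (12.4%), and in 54.2% and 19.5% of the thinned mesenchyme cells of these days. Without thinning, CDH2 was found in 30 of 33 and 46 of 101 late epiblast cells. SOX2 was found in 86.7% of the thinned cells of day 17 and 63.9% of those of day 16, or in 33 of 33 and 86 of 101 cells without thinning, against 25.0% and 13.0% of the thinned mesenchyme cells. TBXT was found in 0 of 30 and 0 of 97 thinned cells, which the exact intervals bound at 11.6% and 3.73%. COL1A1, which is made by the mesenchyme, was found in 93.3% of the thinned late epiblast cells of day 17 and 42.3% of those of day 16 (33 of 33 and 87 of 101 without thinning), and in all 144 and 77 thinned mesenchyme cells of these days. APOA1, an endoderm apolipoprotein, was found in 10.0% and 42.3% of the thinned late epiblast cells of days 17 and 16. Of the 9 day 17 cells with a NANOG count, all 9 also held OTX2 counts, where 29 of 33 cells held them.

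**Figure D4:**
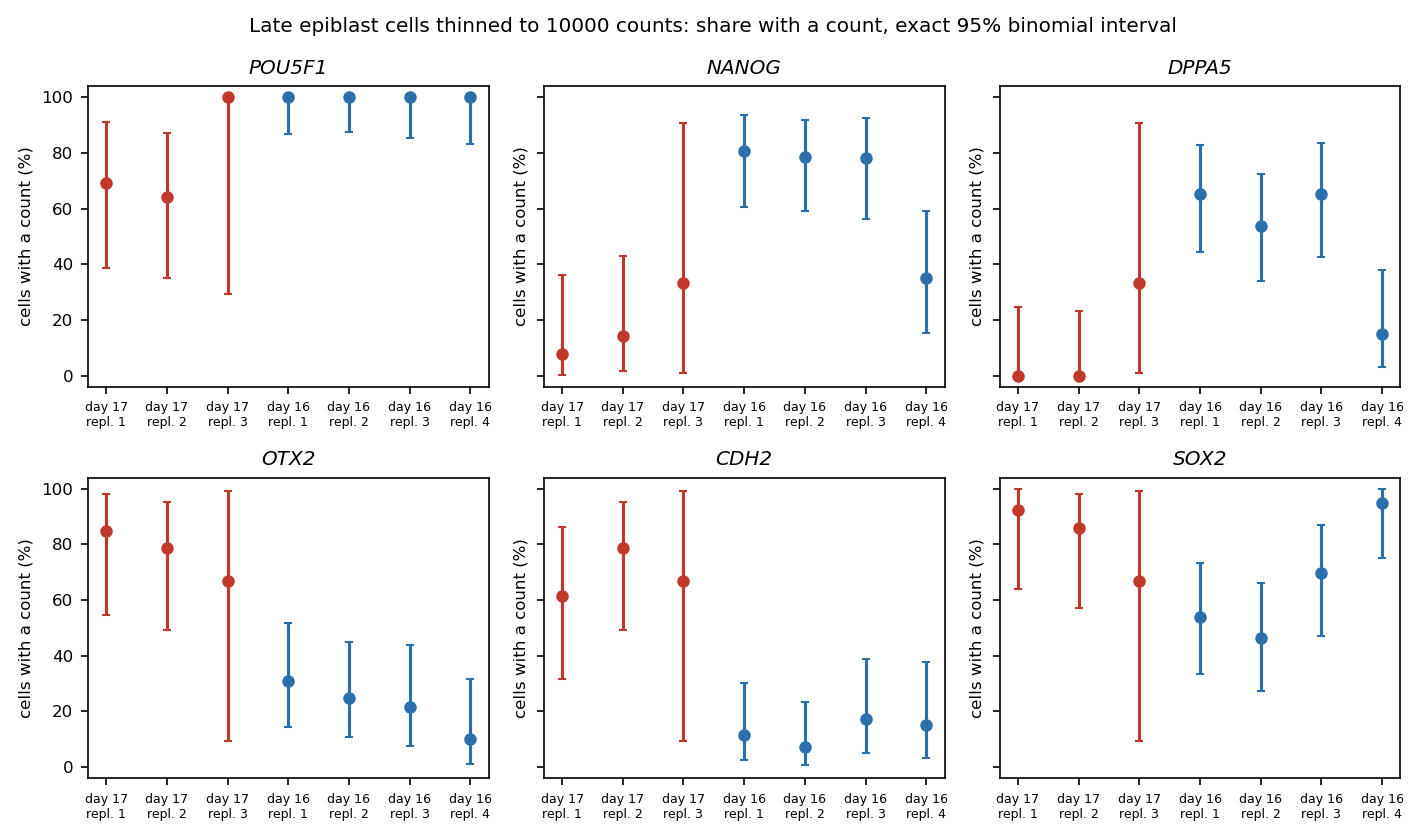
Share of late epiblast cells with at least 1 count of each of 6 genes after thinning every cell to 10000 counts (vertical axis, percent), per embryo, with exact 95% binomial intervals; red is day 17 and blue is day 16. In day 17 replicates 1 and 2 the shares of POU5F1, NANOG and DPPA5 lie below those of every day 16 embryo and the shares of OTX2 and CDH2 lie above them, while the intervals of replicate 3, with 3 cells, span most of the axis.

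The day difference of the late epiblast was then set against that of the extraembryonic mesenchyme of the same embryos, as an interaction of day and type. Of 15325 genes, 27 (0.176%) had a higher and 20 (0.131%) a lower day difference in the late epiblast, with 1230 at an unadjusted p under 0.05. The calls fell to 8 without day 17 replicate 1, 15 without day 17 replicate 2 and 27 without day 16 replicate 2, and rose to 86 without day 16 replicate 4. POU5F1 was lower at day 17 in both types: it averaged 226 ± 41.2 CPM at day 17 (n = 2) and 893 ± 49.7 CPM at day 16 (n = 4) in the late epiblast, and 45.7 ± 40.3 CPM (n = 3) and 228 ± 65.5 CPM (n = 4) in the mesenchyme (SD). The interaction for POU5F1 was 0.07 ± 0.45 (log2, SE), and it was not called (edgeR adjusted p = 1.0). For OTX2 the interaction was 2.49 ± 1.25 (SE; edgeR adjusted p = 0.71), and a difference between the types was not called. None of the hypoxia, glycolysis, oxidative phosphorylation, cholesterol and core pluripotency genes was called for interaction. Their medians were -0.15, -0.06, -0.31, -0.89 and -0.06, against -0.11 over all 15325 genes.

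Among the genes whose day difference did differ, ITM2A fell further in the late epiblast, with 0 CPM in both day 17 sums and 126 to 297 CPM at day 16, against 3.09 to 6.58 CPM and 22.7 to 114 CPM in the mesenchyme. ALCAM, an adhesion molecule, had 4.57 and 5.11 CPM in the late epiblast of day 17 and 33.8 to 110 CPM in that of day 16, while the mesenchyme had 45.7 to 145 CPM at day 17 and 3.32 to 19.7 CPM at day 16. The types thus moved in opposite directions, and the interaction was -6.50 ± 0.95 (SE; edgeR adjusted p = 0.0066). CNN1, a calponin of smooth muscle, had 124 to 199 CPM in the mesenchyme of day 17 and at most 3.44 CPM in that of day 16, against 3.71 to 15.0 CPM and 1.92 to 11.1 CPM in the late epiblast. DKK1 was higher at day 17 in the late epiblast, from 6 of 33 cells of which 1 held 56.0% of the counts. In the mesenchyme DKK1 had 32.5 to 61.9 CPM at day 17 and 10.7 to 99.0 CPM at day 16. FRZB, a WNT antagonist, had 37.8 and 34.8 CPM in the late epiblast of day 17 and 12.1 to 26.2 CPM in that of day 16, against 177 to 278 CPM and 504 to 1244 CPM in the mesenchyme. SYTL3 and PURG, whose day difference was lower in the late epiblast, rest on few cells, since 1 cell held 73.7% and 69.8% of their day 16 late epiblast counts. Without day 17 replicate 1 the interaction calls of ITM2A, ALCAM, CNN1, DKK1 and PURG were lost.

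The late epiblast of 6 embryos was set against the early post-implantation epiblast (annotation postE-EPI, 170 cells) of 8 embryos of days 11 to 14. These embryos differ in age and both label types occur in each group, so the contrast joins the annotation with the day. Of 10988 genes, 165 (1.5%) were higher and 171 (1.56%) lower in the late epiblast, with 2064 at an unadjusted p under 0.05. The late epiblast had more SFRP1, ZIC2, OTX2, hypoxia and glycolysis genes and less of the naive and maternal complex genes. SFRP1 had 977 and 1124 CPM in the late epiblast of day 17 and 493 to 1156 CPM in that of day 16, against 7.71 to 122 CPM in the early epiblast. ZIC2 had 166 and 159 CPM in the late epiblast of day 17 and 103 to 197 CPM in that of day 16, against 0 to 29.5 CPM in the early epiblast. Neither gene overlapped between the groups, and the log2 fold changes were 4.16 ± 0.51 and 3.21 ± 0.46 (SE). POU5F1 and DNMT3B were not called: POU5F1 averaged 778 ± 410 CPM in the late epiblast (n = 6) and 816 ± 108 CPM in the early epiblast (n = 8), and DNMT3B averaged 1077 ± 243 and 1033 ± 276 CPM (SD). IGFBP2, a binding protein of insulin-like growth factors, had 230 to 805 CPM in the late epiblast, against 19.0 to 73.0 CPM in the early epiblast. BHLHE41, a circadian and hypoxia-responsive repressor, had 366 counts in the late epiblast and 2 in the early epiblast, a ratio of 173 (95% counting interval 47.7 to 1438).

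Of 12 tested naive and maternal complex genes, 8 were lower in the late epiblast and none higher, with a median of -3.63 against 0.04 over all genes. DPPA5 had 5.74 and 2.67 CPM in the late epiblast of day 17 and 67.4 to 191 CPM in that of day 16, against 588 to 1902 CPM in the early epiblast. NLRP7 and OOEP, members of the maternal complex of the egg, averaged 3.42 ± 3.99 and 5.36 ± 4.33 CPM in the late epiblast, against 223 ± 121 and 315 ± 288 CPM in the early epiblast (SD, n = 6 and 8). The early epiblast of day 14 was already lower than that of days 11 to 13, with 34.8 and 85.4 CPM of NLRP7 against 178 to 385 CPM, and 22.9 and 35.6 CPM of OOEP against 175 to 796 CPM. KHDC3L, of the same complex, had 184 CPM in the late epiblast of day 16 replicate 1 and 0 to 16.9 CPM in the other 5 sums, against 199 to 2444 CPM in the early epiblast, and its call was lost in 8 of 14 fits that left out 1 embryo. VENTX, NPPA, NPPB, CYP11A1 and SPP1 were the other large decreases. SPP1, the secreted protein osteopontin, averaged 12.7 ± 8.86 CPM in the late epiblast and 1419 ± 2031 CPM in the early epiblast, where it was 93.4 to 985 CPM up to day 13 and 5996 and 2710 CPM at day 14.

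Of 20 tested hypoxia targets, 8 were higher in the late epiblast and none lower, with a median of 1.81, and of 18 glycolysis genes, 6 were higher and none lower, with a median of 0.83. P4HA1, a collagen hydroxylase, had 100.4 and 79.5 CPM in the late epiblast of day 17 and 304 to 563 CPM in that of day 16, against 9.87 to 99.96 CPM in the early epiblast. DDIT4, a stress-induced inhibitor of mTOR, stayed high on both days, with 156 and 362 CPM at day 17 and 294 to 429 CPM at day 16, against 3.44 to 52.1 CPM in the early epiblast. LUM and DCN, proteoglycans of the mesenchyme, were called higher in the late epiblast too, with averages of 73.9 and 46.0 CPM against 4.53 and 2.28 CPM in the early epiblast. On the common scale the extraembryonic mesenchyme averaged 2489 CPM of LUM and 2375 CPM of DCN at day 17 and 3368 and 2660 CPM at day 16, and its part in this difference was not tested. Against the early epiblast of day 14 alone, the sums of 2 embryos, 49 genes were called, and OTX2, BHLHE41, NLRP7, OOEP, KHDC3L, VENTX and CYP11A1 were not among them. With developmental stage labels alone the calls of OTX2, OOEP and KHDC3L were lost.

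**Figure D5:**
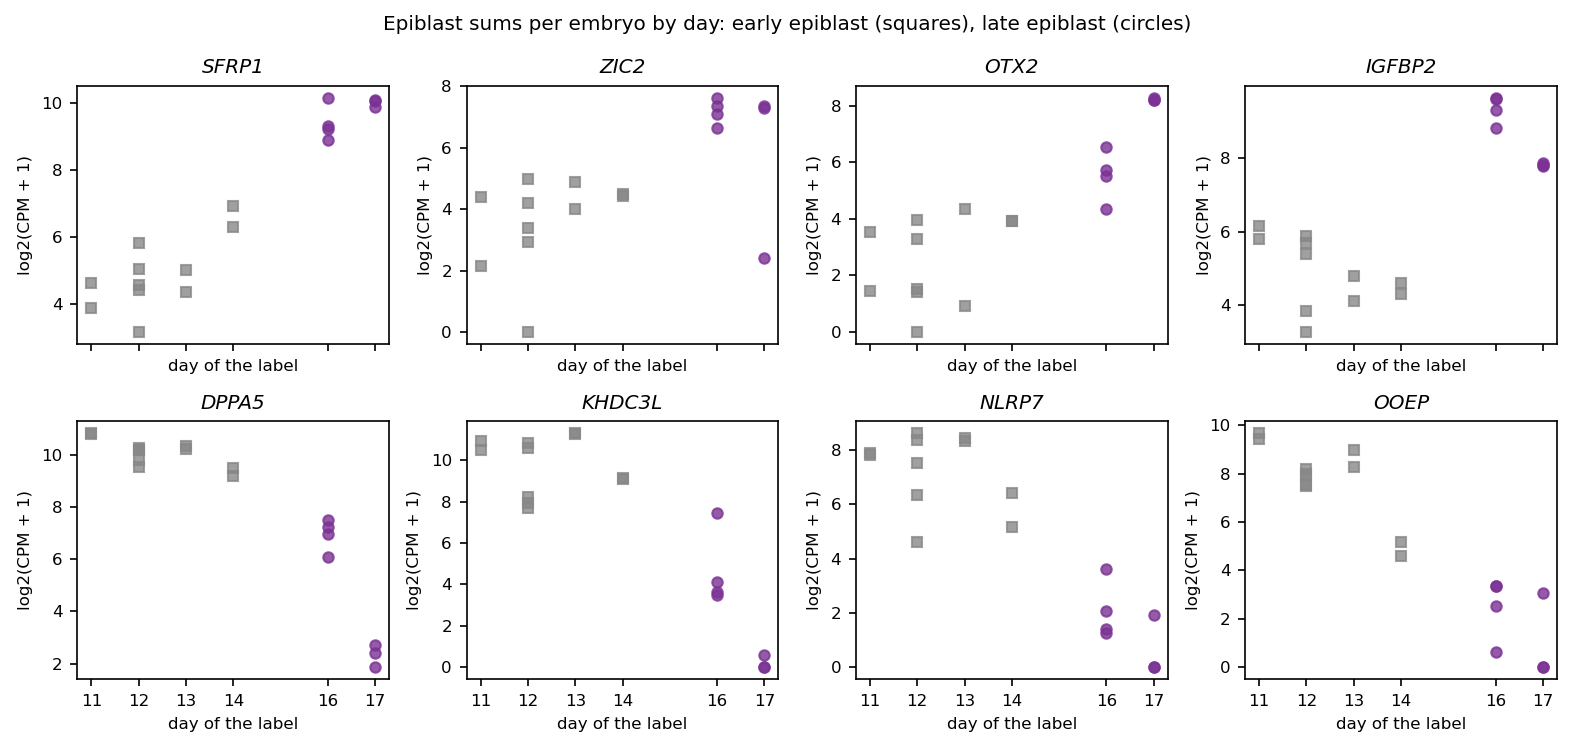
Levels of 8 genes in the epiblast sum of each embryo, as log2(CPM + 1) on a scale common to all types (vertical axis), by the day of the label (horizontal axis); grey squares are early and purple circles late epiblast, and sums of fewer than 5 cells are included. SFRP1, ZIC2, OTX2 and IGFBP2 lie higher in the late epiblast, except ZIC2 in the 3 cells of day 17 replicate 3, and DPPA5, KHDC3L, NLRP7 and OOEP lie lower.

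The late epiblast cells of day 16 also differed among themselves. Over 9293 genes found in at least 25% of these 101 cells, CDH18, ARSDR1, F10, ZYG11B, H1-3, KPNA2, STON1, CWF19L2, KCND2, CENPE and PTPRT were among those with the largest variance between cells of an embryo relative to genes of like mean level. CDH18 ranged within an embryo between a median of 12.3 to 116 CPM and a highest cell of 3933 to 91121 CPM. CENPE and KPNA2, a kinesin of mitosis and a nuclear import factor that vary with the cell cycle, correlated most among the pairs of these genes, with a mean Pearson r within embryos of 0.33 over 101 cells. Each cell's points share 1 library and its depth, and the correlation of KPNA2 with the log10 counts of a cell was 0.38. Among the pluripotency genes, SOX2 ranked 253rd by this measure, with a median of 57.2, 69.2, 184 and 514 CPM over the cells of replicates 1 to 4.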

How the data were processed

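The authors deposited 1 table of raw counts per gene and cell (30792 features, 1453 cells of 21 embryos) and a cell table with the type annotation, which was used as given; no column lacked a label. Reads were aligned with STAR, per the submitters' processing notes; the genome build and whether duplicate molecules were collapsed are not stated there or in the labels. Deposited counts were summed over the cells of a type in an embryo (at least 5 cells) and tested with edgeR 4.0.16 in R 4.3.3 (TMM, filterByExpr, quasi-likelihood F test, Benjamini-Hochberg, threshold 0.05), with the embryo as a block between types and without one between days. Nothing in the labels says that replicate numbers, given in accession order, pair samples. CPM are scaled within each fit, so levels of a gene differ slightly between comparisons; the common scale joins all types. Folds against sums with no count pool the counts of all embryos of a group and use a floor of 3 counts over the group. Such folds and the counting intervals leave out the spread between embryos, and a single embryo can lie below the stated fold. DESeq2 1.42.0, other scalings and filters, thinned cells and fits without 1 embryo were alternatives. The test script was checked on simulated counts. Python 3.11.15 with pandas 2.3.3, scipy 1.17.1 and matplotlib 3.10.9 made the summaries. Gene symbols came from the table or, by gene identifier, from RefSeq; features with an identifier only hold 6.96% of the counts. Named genes are the 12 (day), 8 (types, early epiblast) or 6 (interaction) largest called changes per direction with at least 20 CPM in the higher group. For the day and the early epiblast the groups also could not overlap. For the types the sign had to be the same in every embryo that holds both, and for the interaction neither was required. The 4 members of each list with the smallest adjusted p and 8 fixed pluripotency and streak genes are named too. Others were chosen after their values were seen. 1 gene of the variation between cells is not reported here. Members and lists were chosen with earlier results of these data known. Labels do not say whether embryos share parents, so p-values measure the spread between these embryos.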

Additional observations from a re-analysis of the deposited data

Results flagged for a closer look

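Among 108 genes examined over the 4 day 16 late epiblast sums, 15 had 1 embryo far from the other 3 by Dixon's test, which chance gives in about 1 of 20 groups. For RAB32, SYTL4, FEZF2 and DKK1 the other 3 sums held no count, so any count at all passes the test and that rate does not apply, which leaves 11 genes. Replicate 1 was high for SOX21 (3.20 CPM), GDF3 (153 CPM), FAM71F2 (87.9 CPM), KHDC3L (168.5 CPM), FOXA2 (32.9 CPM) and FEZF2 (0.320 CPM). Replicate 2 was high for DKK1 (1.71 CPM), and replicate 3 for RAB32 and SYTL4 (0.371 CPM each, from 1 count) and CRABP1 (25.3 CPM). Replicate 4 was high for PDZD4 (224 CPM), TPM1 (138.7 CPM), P4HA1 (511 CPM) and CDKN1C (51.5 CPM) and low for SGCE (2.04 CPM).

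Of the 47 genes called for interaction of day and type, 17 are named here by the rule for named genes. For these the difference between day 17 and day 16 was not the same in the late epiblast as in the extraembryonic mesenchyme, by the interaction term of edgeR's quasi-likelihood test. The log2 difference, late epiblast minus mesenchyme, was above 0 for KHDC1L (8.83), SYTL4 (7.93), LIX1 (6.51), DKK1 (5.93), SYTL5 (5.09), NIN (4.49), BMP4 (3.13), LAMA1 (3.09), FRZB (2.95) and PEG10 (2.28). It was below 0 for ITM2A (-8.66), SYTL3 (-7.32), CC2D2B (-6.59), PURG (-6.58), ALCAM (-6.50), CNN1 (-6.27) and HSPB1 (-1.53).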

How the results depend on the processing

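With DESeq2 the calls numbered 1192 between days, 1008 against late gastrulating cells, 1322 against late amnion, 2605 against mesenchyme, 777 against early epiblast and 200 for the interaction. Thinned cells gave 222 calls between days and 200 against early epiblast. Developmental stage labels alone gave 148 calls between days (75 higher, 73 lower), 47 of them shared with the 437; there ZIC2 was -5.05 and TFR2 0.24 (log2), and the cause was not tested. Against early epiblast, sums of at least 3 cells gave 520 calls, late epiblast of day 16 only gave 532 and early epiblast of day 14 only gave 49. The interaction had 19 calls without the replicate block (embryo) and 149 when only genes under 10 counts were left out. Leaving out 1 embryo gave 27 to 928 calls between days, 178 to 409 against gastrulating cells, 153 to 547 against amnion, 1159 to 1731 against mesenchyme, 239 to 369 against early epiblast and 8 to 86 for the interaction. Other settings kept these counts within 1.5 times, but not always the same genes. With the 3-cell sum of day 17 replicate 3 added, the day comparison had 333 calls (111 higher, 222 lower). Of these, 233 were shared with the 437. For the named genes of the day comparison, 356 of the alternative values kept their side of the threshold, 68 lost the call and 1 gained it. A further 2 changed sign for a gene called in the main or the alternative fit. Sign changes of genes called in neither fit are among the 356. SOX2, for example, had a log2 fold change of 0.26 in the main fit and -1.11 with developmental stage labels alone. The day comparison rests on 2 day 17 sums of 15 cells each, and no depth would separate day from label type there.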
